A study of Sus scrofa with 6 samples.

Results

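A set of 356 genes whose mRNA was lowest in control porcine oocytes, higher after heat stress and higher again when NMN was given with the heat is described here. Each gene had to have a mean of at least 1 FPKM (fragments corrected for transcript length and for library depth) over the 6 samples. Both heat-stressed samples had to lie above both control samples, and both NMN-supplemented samples above both heat-stressed samples. The log2 ratio of the NMN-supplemented to the control mean, with 1 FPKM added to each, had to be 0.5 or more. Of 29861 genes in the table, 4713 reached the mean of 1 FPKM, and 3418 of these were left after a filter on gene names that drops uncharacterised LOC genes, large families such as ribosomal protein, zinc finger, solute carrier and proteasome genes, and mitochondrially encoded genes. The order and the size of the differences therefore chose these genes and are given as a description, without a test.

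The oocytes came from pig ovaries collected at an abattoir and were pooled and matured in vitro. Control oocytes (samples C1 and C2) had neither treatment, heat-stressed oocytes (H1 and H2) were cultured at a raised temperature, and NMN-supplemented oocytes (T1 and T2) had nicotinamide mononucleotide in the medium during the same heat. No sample had NMN without heat, so the NMN step was measured on a heat background only. The labels give the GV (germinal vesicle) stage and 24 h for all 6 samples, whereas the study's methods describe the sequenced oocytes as metaphase II. Each group has 2 samples, and it is not stated whether these were separate cultures, so their spread may be technical.

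A fully grown oocyte is nearly silent in transcription and lives on stored maternal mRNA. During maturation the stored transcripts are read, adenylated or deadenylated under the control of elements in their 3′ UTRs, among them the cytoplasmic polyadenylation element (CPE), and many are degraded. NMN is a precursor of NAD+, a coenzyme of energy metabolism and the substrate of sirtuins and PARP enzymes. In pooled oocytes, fewer cells holding a transcript and less of it per cell cannot be told apart.

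Most of these mRNAs held a CPE somewhere in the 3′ UTR, but their 3′ UTRs were also longer and richer in A and T. Of 353 of the genes with an annotated 3′ UTR, 96.6% held at least 1 CPE (TTTTAT or TTTTAAT on the mRNA strand), compared with 74.5% of the 3360 expressed genes with one. The median 3′ UTR had 2479 bases and 34.8% GC in members, against 1167 bases and 40.8% in expressed genes. Among 3′ UTRs of at least 100 bases, 35.8% of 349 members and 26.2% of 3264 expressed genes held a CPE in the last 100 bases. The following stretches of 30 bases show the element nearest the transcript end in 6 members described below, as RefSeq gives them for Sscrofa11.1. They were chosen among 66 members whose stretch also holds a polyadenylation signal (AATAAA or ATTAAA) and whose CPE lies within 100 bases of the end. Capitals mark the CPE and the signal, which may overlap.
SRSF3: agtgttgaATTAAATTTTATgtccacaaaa
PAN3: agtatTTTTAATAAAgaattacagagagaa
PALB2: cagatgttAATAAAtaTTTTATtttggtac
ACVR2B: TTTTATctttttgtatatgaaAATAAAatg
CTNNB1: ggttcagaATTAAAcTTTTAATtcattcga
MFN1: TTTTATgtgtgcaaggtgaaAATAAAactt
These stretches lie at chr7:32298623-32298652 (SRSF3, plus strand), chr11:5614429-5614458 (PAN3, plus), chr3:22612808-22612837 (PALB2, plus), chr13:23276042-23276071 (ACVR2B, plus), chr13:25208285-25208314 (CTNNB1, plus) and chr13:117441704-117441733 (MFN1, plus), all within 3′ UTRs. In PAN3 the CPE and the signal share bases. In SRSF3, PALB2 and CTNNB1 the CPE follows the signal, and in ACVR2B and MFN1 it precedes it. A match of letters is not evidence that the element is used.

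Several facts of the libraries bear on the levels below. Relative depth, estimated from the smallest FPKM steps with C1 set to 1, was 1.16 in C2. It was 0.732 and 0.853 with heat and 0.883 and 0.79 with NMN, below both control samples. Absolute depth is not given in the sources used here. The FPKM sum was 178617 and 163929 in control, 290136 and 203875 with heat and 239211 and 235475 with NMN. Transcripts of the mitochondrial genome made up 66.4 and 61.7% of it in control, 62.4 and 71.6% with heat and 74.2 and 74.7% with NMN. The part of these group differences in the members' order was not tested. Sample H1 stood apart because 1 uncharacterised gene, LOC100513953, was listed at 40366 FPKM in it and at 0 in the other 5 samples. The FPKM sum of H1 and its mitochondrial share include this gene. The 25 oocyte markers checked included 22 genes of the table, and their summed level was 3654 to 4378 FPKM. The 24 cumulus and granulosa cell markers in the table summed to 7.12 to 19.0 FPKM, with FSHR at 0.0647 to 0.109 FPKM and AMH at 0 in all samples. Only 1 of them reached a mean of 1 FPKM, and its log2 difference between NMN-supplemented and control samples was -1.02. GREM1, checked beside these markers but not on the list, is itself a member. It had 2.48 and 1.73 FPKM in control, 3.27 and 2.87 with heat and 3.58 and 3.55 with NMN, and was named after its values were seen. Over all 4713 genes, the median log2 difference between NMN-supplemented and control samples was 0.11.

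Across the 356 genes, levels were moderate and the differences were modest in size. The median FPKM was 3.71 in control, 5.46 with heat and 6.52 with NMN, whereas over the 3418 expressed genes the medians were 3.06, 3.05 and 3.20 FPKM. The median ratio of NMN-supplemented to control FPKM was 1.82 (range 1.42 to 3.01), and the ratio of heat-stressed to control FPKM was 1.42 at the median. Control levels were below 1 FPKM for 21 genes, from 1 to under 5 for 187, from 5 to under 20 for 115 and 20 or more for 33, and no member was listed at 0 in any sample. The median SE of a log2 difference was 0.13 (0.10 to 0.35) with 2 samples per group. Within groups, the median SD of log2 values was 0.11 in members and 0.14 in expressed genes. Close replicates are favoured by the rule, which asks for groups without overlap. The difference between NMN-supplemented and control oocytes was more than 3 SE in 354 genes, the heat step more than 2 SE in 304 and the NMN step more than 2 SE in 204. The rule used these same contrasts, so these counts are largely set by the selection and do not measure the strength of the differences. Their shares among the 3418 expressed genes were not computed.

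The order itself was frequent among all expressed genes. Control, heat-stressed and NMN-supplemented samples stood in this order without overlap in 621 of 3418 genes (18.2%), of which the minimum difference left the 356 described here (10.4%). The reversed order with the same minimum was met by 207 genes (6.06%). Heat-stressed samples lay above control samples without overlap in 1136 genes (33.2%), and NMN-supplemented above heat-stressed samples in 1361 (39.8%). The 3 genes just inside the minimum were PRKAR1A, CHMP1B and FAM72A, with log2 ratios of 0.503, 0.501 and 0.501. Just outside lay IKZF5, ERCC4 and WNK1, with 0.498, 0.498 and 0.495. Before the filter on names 440 genes met the rule, and 38 of the 84 it dropped were LOC genes and 9 were ZNF genes.

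Sample by sample, the members shifted together. Relative to the control mean, the median log2(FPKM + 1) over the 356 genes was 0.08 in C1, -0.08 in C2, 0.37 in H1, 0.41 in H2, 0.69 in T1 and 0.65 in T2. For the 3418 expressed genes the corresponding medians were 0.01, -0.01, 0.06, 0.05, 0.17 and 0.13. The replicates also differed in a common direction. C1 lay above C2 in 291 of the 356 genes (81.7%, against 52.7% of the expressed genes), H2 above H1 in 245 (68.8% against 51.3%) and T1 above T2 in 236 (66.3% against 57.4%). With all samples scaled to the same sum of non-mitochondrial FPKM, 14 genes met the rule, 4 of them members. With LOC100513953 also left out of that sum, 308 genes met it, 279 of them members. Leaving H1 out can only loosen the rule, so all members then meet it by construction, among 442 genes.

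**Figure D1:**
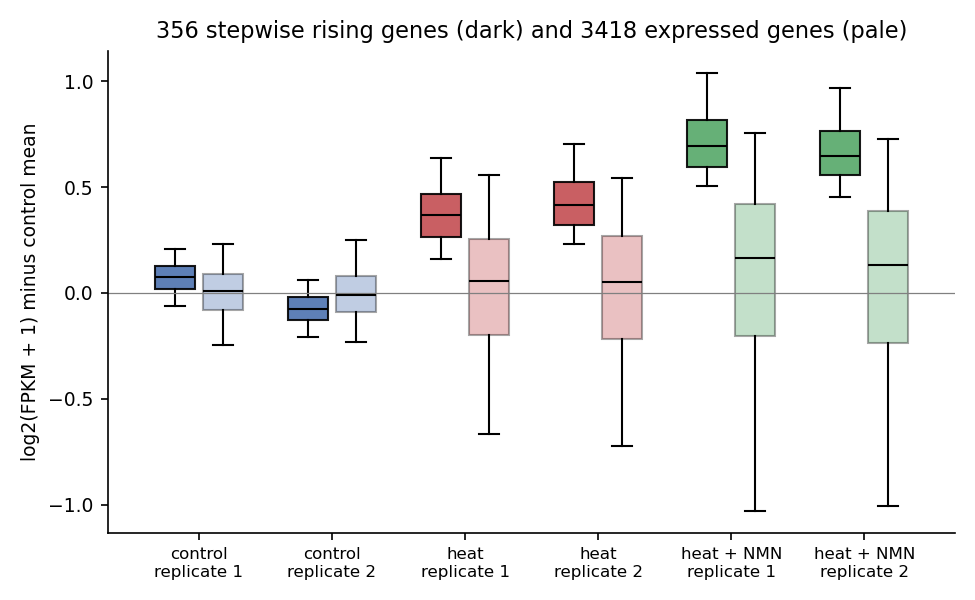
Box plots of log2(FPKM + 1) minus the control mean in each of the 6 samples for the 356 stepwise rising genes (dark) and the 3418 expressed genes (pale), with boxes for quartiles, a line for the median and whiskers from the 5th to the 95th percentile. The dark medians run from -0.08 in C2 to 0.69 in T1, while the pale medians stay between -0.01 and 0.17; the members' order between groups was set by their selection.

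The members with the largest difference included scaffold, nuclear, centrosome and membrane proteins. LIN7C, a PDZ scaffold protein of cell polarity complexes, had 12.7 and 8.37 FPKM in the control samples, 24.8 and 24.5 with heat and 30.9 and 28.3 with NMN. Its log2 difference between NMN-supplemented and control oocytes was 1.43 (SE 0.19, n = 2 per group), of which 82.4% was already present with heat. NCOA3, a coactivator of nuclear receptors, had 5.87 and 2.48, then 6.08 and 9.15, then 12.6 and 12.5 FPKM. It had the largest fold of all members, 3.01, but also the largest SE, 0.35 on a log2 difference of 1.47, and its control and heat-stressed groups nearly touched at C1 and H1. KIAA1551, a nuclear protein known for silencing retroelements, was at 19.9 and 14.99, 24.6 and 34.0, and 44.3 and 42.4 FPKM in the same order of groups.

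Centrosome, coenzyme and Golgi genes followed at this end of the set. CCP110, which caps centrioles, was listed at 5.87 and 4.38, 8.11 and 10.2, and 13.2 and 12.7 FPKM, a fold of 2.53 over control. For PANK3, a pantothenate kinase that opens coenzyme A synthesis, the values were 10.7 and 8.02, 18.2 and 18.1, and 22.2 and 22.5 FPKM. Its replicates within each heated group nearly coincided, well apart from the other groups. GOLT1B, a Golgi membrane protein of vesicle transport, went from 30.5 and 25.2 to 47.0 and 43.6 and to 65.1 and 54.7 FPKM.

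NAA30 and NAA50, which are subunits of N-terminal acetyltransferases, were among the 25 genes with the largest difference. NAA50 had 15.6 and 12.4 FPKM in control, 23.5 and 23.9 with heat and 29.7 and 29.2 with NMN, and its heat step (log2 0.73) was larger than its NMN step (0.30). NAA30 had 7.98 and 6.08, 14.4 and 11.8, and 15.9 and 15.2 FPKM, at a locus that 4 genes share in the authors' table. MMGT1, a subunit of the ER membrane complex that inserts membrane proteins, had a fold of 2.16 and TMEM33, another ER membrane protein, of 2.14. The zinc finger gene THAP5 had the highest level of these 25 genes, with 51.9 and 43.9, 74.7 and 78.6, and 104 and 85.8 FPKM.

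**Figure D2:**
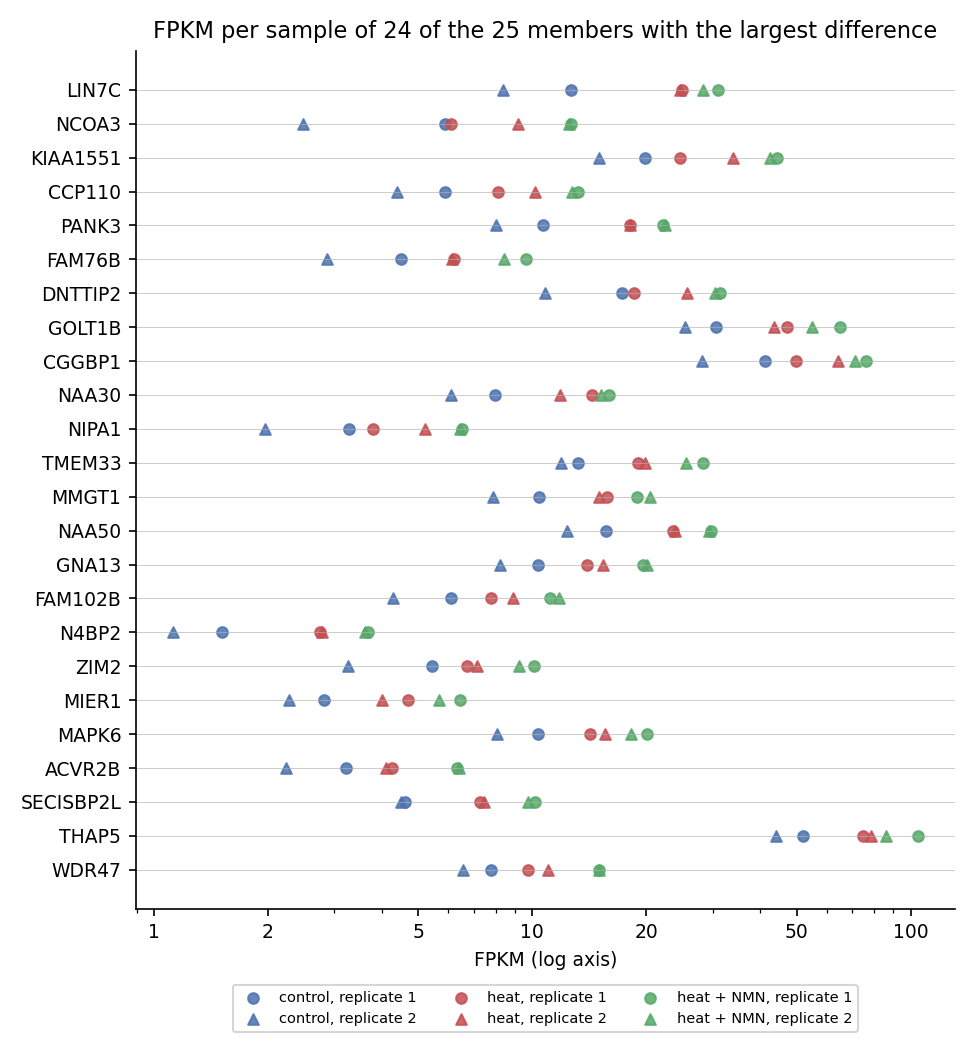
FPKM (log axis) of 24 of the 25 members with the largest difference, one gene per line, with circles for replicate 1 and triangles for replicate 2 of each group (blue control, red heat, green heat with NMN). The genes range from 1.12 FPKM (N4BP2 in C2) to 104 FPKM (THAP5 in T1), and replicate 2 of control is the lowest point of each line.

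The members with the highest levels were WEE2, HAS3 and CDC42SE1. WEE2, the oocyte kinase that holds CDK1 inactive and keeps meiosis arrested, had 157 and 134 FPKM in control, 201 and 198 with heat and 251 and 249 with NMN. Its log2 differences were 0.45 for the heat step and 0.33 for the NMN step (SE 0.12). HAS3, a hyaluronan synthase, had 127 and 102, 146 and 157, and 184 and 189 FPKM. The small CDC42 effector CDC42SE1 had 124 and 110, 151 and 146, and 173 and 176 FPKM, and in WEE2 and CDC42SE1 the samples of a group lay closer together than the groups, while the HAS3 control samples were further apart than C1 and H1. WEE2 and HAS3 each lie at a locus shared with another gene, where the files do not show how overlapping fragments were assigned. WEE2 was the only one of 20 expressed oocyte markers in the set. Of the other markers 5 met the reversed rule, and the list's median log2 difference between NMN-supplemented and control oocytes was -0.40. Among oocyte growth factors, named after their values were seen, GDF9 had 732 and 777, 477 and 532, and 435 and 353 FPKM. BMP15, at 1606 and 1646, 1861 and 1940, and 1820 and 1751 FPKM, was instead higher in both heated groups than in control and met neither rule.

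The heat step was the larger one in most members. At the median, heat-stressed oocytes were 0.38 above control and NMN-supplemented oocytes 0.29 above heat-stressed ones on the log2 scale, against 0.05 and 0.10 for the 3418 expressed genes. A median of 57.9% of the whole difference (quartiles 50.1 and 65.6%) was present with heat, and in 267 genes more than 50% was. This balance depended on the scaling: with samples brought to the same non-mitochondrial sum the median steps were 0.12 for heat and 0.60 for NMN, and the median share was 16.3%. With LOC100513953 left out of that sum they were 0.36, 0.33 and 52.1%. The heat step was 0.22 with the trend on transcript GC removed and 0.19 with the trend on length removed as well, with median shares of 56.3 and 58.2%. The share was 75% or more in 28 genes. PPM1D and PPM1A, both protein phosphatases that act against stress and checkpoint kinases, had the largest shares, 91.3 and 88.4%. PPM1D had 3.30 and 2.83 FPKM in control, 6.18 and 6.04 with heat and 6.72 and 6.28 with NMN, so that its NMN step of 0.08 was smaller than its SE of 0.12. The related PPM1B, which was picked out after its values were seen, had 2.11 and 1.09, 2.59 and 2.98, and 3.40 and 3.22 FPKM.

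At the other end, 2 genes had less than 25% of their difference with heat. MSX1, a homeobox transcription factor, had 12.5 and 12.7 FPKM in control, 13.1 and 13.4 with heat and 19.1 and 18.4 with NMN, and its share was 12.9%. ALG2, a mannosyltransferase of N-glycan synthesis, had 1.17 and 1.12, 1.22 and 1.56, and 3.07 and 2.25 FPKM, with a share of 20.2%. In MSX1 the heat step (0.07) was within 1 SE (0.10), whereas the NMN step (0.47) was several times the SE. PAPD7, a noncanonical poly(A) polymerase, came next with 27.5%, and had 15.1 and 14.8, 16.0 and 17.8, and 24.1 and 22.4 FPKM.

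**Figure D3:**
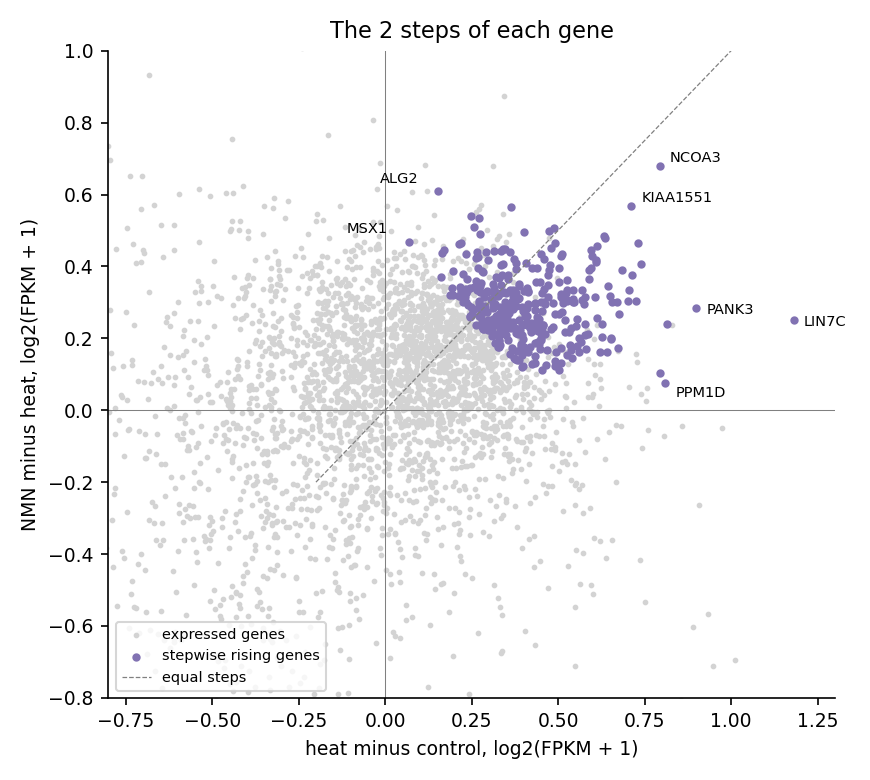
The heat step (horizontal axis) against the NMN step (vertical axis) of each gene, in log2(FPKM + 1), for the 356 stepwise rising genes (purple) and the 3418 expressed genes (grey), with a dashed line of equal steps; 161 expressed genes, none of them members, lie outside the axes. Most members lie to the right of the line, with 267 having more than 50% of the difference with heat, and LIN7C, PPM1D, MSX1 and ALG2 mark the extremes.

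The members were then read by role, from lists of genes defined by symbol. Of 1247 expressed genes on any list of roles 140 were members (11.2%), compared with 216 of 2171 genes on none (9.95%). The lists with the highest shares were signalling kinases and phosphatases (20 of 128, 15.6%), cell cycle and meiosis (22 of 147, 14.97%), vesicle traffic (16 of 111, 14.4%), cytoskeleton (13 of 93, 14.0%) and ubiquitin ligases (16 of 123, 13.01%). Shares near the 10.4% of all expressed genes were found for DNA repair (10.7%), apoptosis and the integrated stress response (9.76%), chromatin and transcription (9.64%), RNA binding and decay (9.39%), autophagy (8.51%) and growth factor signalling (8.33%). Chaperones (2 of 43, 4.65%) and mitochondria (3 of 82, 3.66%) had the lowest. Both shares were counted after the name filter, which drops mitochondrially encoded genes and symbols starting with NDUF, MRP or DNAJ. Of the genes it dropped, 6 mitochondrially encoded genes, 1 MRP gene and 1 DNAJ gene met the rule. No list was tested against chance. The lists of roles differ in median transcript GC content, from 44.0% for DNA repair to 53.7% for growth factor signalling. The signalling list, with the highest share, had 48.2%, against 48.1% in expressed genes. GC content of the members is taken up below.

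**Figure D4:**
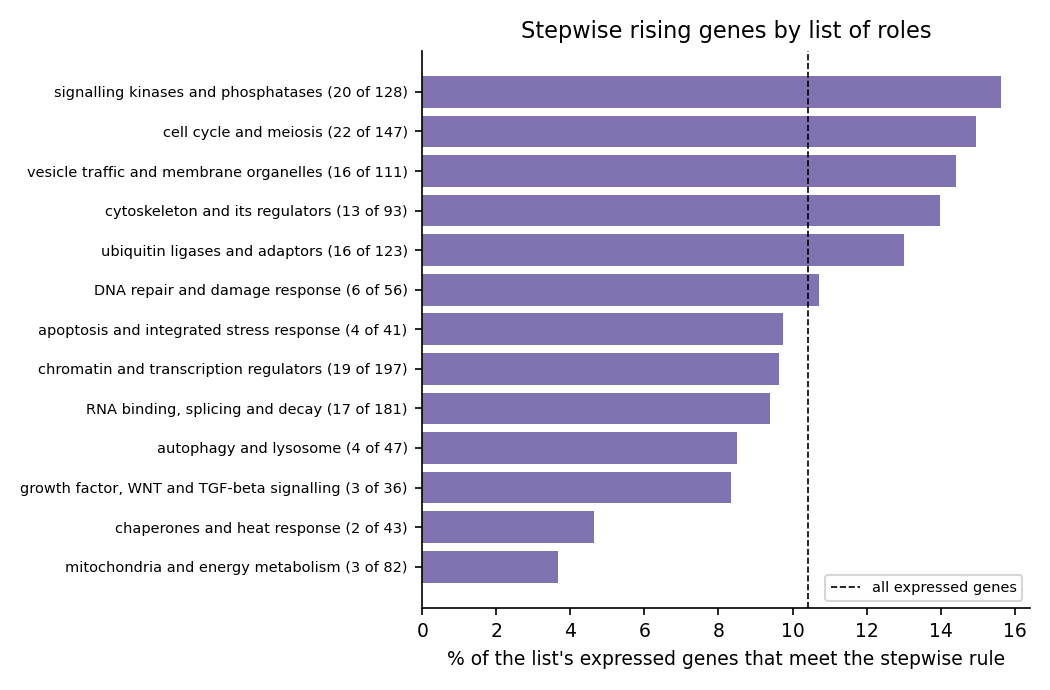
Percent of each list's expressed genes that meet the stepwise rule, with the numbers of members and of expressed genes beside each list, and a dashed line at the 10.4% of all 3418 expressed genes. The bars, counted after the name filter, run from 3.66% for mitochondria and energy metabolism to 15.6% for signalling kinases and phosphatases.

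Among the 22 cell cycle genes were regulators of meiotic arrest, centromeric cohesion and centrosomes. CDCA2, which brings protein phosphatase 1 to chromatin, had 7.32 and 7.498 FPKM in control, 10.02 and 11.9 with heat and 15.1 and 13.5 with NMN. SGO2, the shugoshin that protects centromeric cohesin in meiosis, had 4.62 and 3.50, 5.47 and 6.53, and 8.61 and 7.70 FPKM. Its relative SGO1 had control samples far apart (6.55 and 9.98) and little room to the heat-stressed samples (10.2 and 10.9), with 15.2 and 11.5 with NMN. MASTL, the Greatwall kinase that restrains PP2A at entry into M phase, had 20.9 and 15.8, 23.6 and 22.3, and 31.1 and 26.8 FPKM, a log2 difference of 0.64 (SE 0.17) over control. Cyclin A2 (CCNA2) had 15.4 and 13.2, 16.5 and 18.3, and 21.5 and 22.9 FPKM. SGO1, MASTL and CCNA2 were named after their values were seen. Of the 22, CDC42SE1, CDC37L1, CDC40, CCNT1, CDKN2AIP and MCMBP carry the symbol of a cell cycle family, but are known for CDC42 signalling, HSP90 co-chaperone function, splicing, transcription elongation, p53 regulation and DNA replication. The list's median over all 147 expressed genes was 0.19 (NMN-supplemented minus control), and 9 of them met the reversed rule.

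Signalling members included kinases, phosphatases and their targets. GNA13, the alpha subunit of a heterotrimeric G protein, had 10.4 and 8.22 FPKM in control, 13.9 and 15.4 with heat and 19.6 and 20.03 with NMN. MAPK6 (ERK3), an atypical MAP kinase, was at 10.3 and 8.08, 14.2 and 15.6, and 20.1 and 18.3 FPKM. The Hippo pathway kinase LATS1 was at 2.19 and 1.51, 2.76 and 2.70, and 4.77 and 3.81 FPKM, while YAP1, the coactivator that LATS1 phosphorylates, was at 2.70 and 2.63, 3.99 and 4.32, and 5.17 and 5.24 FPKM. Both were thus higher in each treated group, LATS1 with the larger step on NMN (0.50 against 0.40) and YAP1 with the larger step on heat (0.49 against 0.27). YAP1 and MAPK8 (JNK1), the latter at 1.43 and 1.16, 2.10 and 1.81, and 2.25 and 2.41 FPKM, were named after their values were seen. Of the list's 128 expressed genes 3 met the reversed rule.

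The 3 growth factor members were ACVR2B, CTNND1 and CTNNB1. ACVR2B, a type 2 receptor for activins, had 3.22 and 2.23, 4.26 and 4.11, and 6.33 and 6.39 FPKM, with steps of 0.49 and 0.51. CTNNB1 (beta-catenin) had 10.02 FPKM in both control samples, 11.7 and 14.8 with heat and 16.5 and 15.1 with NMN, at a locus shared by 3 genes. In CTNND1 (p120 catenin), with 15.8 and 11.6, 16.4 and 19.2, and 26.8 and 26.7 FPKM, the larger step was on NMN (0.56 against 0.36).

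RNA-binding members included several that shorten or remove poly(A) tails and caps. CNOT7, a catalytic deadenylase of the CCR4-NOT complex at a locus that 29 genes share in the authors' table, had 21.0 and 15.5 FPKM in control, 27.0 and 25.7 with heat and 31.9 and 29.8 with NMN. CNOT6 and CNOT6L, also catalytic deadenylases of this complex, had lower levels, with folds of 2.08 and 1.78 over control. PAN3, which recruits the deadenylase PAN2, was at 2.14 and 1.88, 2.50 and 2.58, and 3.56 and 3.31 FPKM. The decapping enzyme DCP2 had 3.26 and 2.55, 3.36 and 4.59, and 5.99 and 5.51 FPKM. These decay genes were named after their values were seen, and 9 of the list's 181 expressed genes met the reversed rule. Of the other members on the list, DDX21, a nucleolar helicase, had the largest difference, with 41.0 and 35.5, 50.4 and 57.0, and 76.3 and 71.2 FPKM. SRSF3, a splicing factor, was at 7.85 and 7.74, 12.2 and 12.99, and 15.2 and 14.9 FPKM, and its replicates were the closest of the named RNA genes (SE 0.10). TARDBP (TDP-43) had a heat step of 0.27 and an NMN step of 0.53.

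In chromatin and DNA repair, the members covered remodelling, DNA methylation and homologous recombination. SMARCA5, the ISWI remodelling ATPase, had 6.23 and 5.96 FPKM in control, 9.82 and 10.5 with heat and 13.1 and 12.4 with NMN. UHRF1, which directs maintenance DNA methylation, had 5.70 and 5.34, 6.75 and 6.20, and 8.50 and 9.02 FPKM, and TET3, which oxidises methylcytosine, had 1.80 and 1.15, 1.95 and 2.12, and 2.73 and 2.79 FPKM. These last 2 were named after their values were seen. BRCA2 and its partner PALB2 were both members. PALB2 was at 18.5 and 14.1, 21.1 and 25.2, and 34.0 and 30.6 FPKM, and BRCA2 at 13.1 and 10.3, 14.9 and 19.4, and 22.4 and 24.2 FPKM. Their log2 differences over control were 0.96 (SE 0.17) and 0.95 (SE 0.18). MSH6, of mismatch repair, had a fold of 1.84, and PARP14, an NAD+-using mono-ADP-ribosyltransferase, of 2.07, with 2.48 and 1.88, 2.68 and 3.50, and 4.44 and 4.59 FPKM.

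Vesicle, cytoskeleton and ubiquitin genes formed the other larger groups. The 16 vesicle genes included SECISBP2L, an RNA-binding protein that came onto the list by its symbol, as did the muscle caveolar protein CAVIN4. Among cytoskeleton genes, ARHGAP11A, a GTPase activating protein, had 15.3 and 11.5, 18.4 and 19.3, and 26.7 and 24.0 FPKM. ACTR2 (ARP2), a subunit of the actin-nucleating complex, was at 9.60 and 8.59, 12.1 and 11.5, and 16.0 and 15.9 FPKM, and its NMN step of 0.41 exceeded its heat step of 0.34. ANKRD12, ANKRD50, ANKLE2 and MYLIP are on this list by symbol and are known for other roles. The ubiquitin ligases ITCH and SMURF2 had folds of 2.13 and 2.14 over control. ITCH was at 4.57 and 3.998, 5.90 and 7.15, and 9.53 and 8.71 FPKM, and SMURF2, which acts in TGF-beta signalling, at 3.96 and 3.15, 5.88 and 5.95, and 7.78 and 7.44 FPKM.

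Among the genes left by the name filter, heat-response, mitochondrial, autophagy and apoptosis genes contributed few members. The chaperone list gave PDIK1L, a kinase named for a protein that binds it, and CDC37L1, an HSP90 co-chaperone. CDC37L1 had 2.75 and 2.75 FPKM in control, 3.53 and 3.90 with heat and 4.49 and 4.65 with NMN, at a locus of 5 genes. The median difference of the 43 chaperone genes between NMN-supplemented and control oocytes was -0.04. MFN1, which fuses mitochondria, had 1.63 and 1.97, 2.84 and 2.88, and 3.21 and 3.22 FPKM, so that 78.5% of its difference was present with heat. PDHX, a subunit of pyruvate dehydrogenase, was at 2.24 and 2.28, 3.02 and 2.92, and 3.61 and 3.67 FPKM, and the third gene of that list was PRKAR1A, a regulatory subunit of protein kinase A. For autophagy, ATG2B, a lipid transfer protein of autophagosome growth, had 1.57 and 1.72, 2.06 and 2.15, and 3.42 and 2.98 FPKM, while 9 of the 47 autophagy and lysosome genes (19.1%) met the reversed rule. ERN1 (IRE1), a sensor of the unfolded protein response, had 2.04 and 1.51, 2.48 and 2.52, and 3.70 and 3.85 FPKM, and the apoptosis inhibitor BIRC3 had 5.28 and 3.59, 6.42 and 7.27, and 9.23 and 8.13 FPKM.

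The clearest shared property that the rule had not used was base composition. RefSeq transcripts were found for 354 of the 356 members and 3404 of the 3418 expressed genes. Median GC content of the transcript was 41.5% in members, 48.1% in expressed genes and 56.7% in the 207 genes of reversed order. The coding sequence (45.3, 51.8 and 58.7%) and the 3′ UTR (34.8, 40.8 and 51.6%) showed the same order, whereas promoters, from 250 bases before to 50 after the start, did not (63.8, 62.3 and 61.3%). Members were also longer, with a median 3′ UTR of 2479 bases against 1167 and 595, and a median transcript of 5058 bases against 3163 and 2248. They had a median of 10.5 exons against 8 and 5.

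In 5 bins of equal size by transcript GC, from AT-rich to GC-rich, members made up 24.4, 15.6, 8.68, 2.35 and 1.03% of the genes, and genes of reversed order 0.587, 1.32, 5.59, 8.96 and 13.7%. Across 5 bins of 3′ UTR length, from short to long, the shares of members were 3.42, 2.83, 6.70, 16.7 and 22.9%. MSX1, at 61.5% GC, CHST14, ING5 and PAPD7 were the most GC-rich members. Over all 3404 genes, Spearman's rho of transcript GC was -0.54 with the heat step, -0.16 with the NMN step and -0.48 with the whole difference. Between replicates of a group it was -0.05 (C1 minus C2), -0.07 (H2 minus H1) and -0.07 (T1 minus T2). With 3′ UTR length rho was 0.39 for heat, 0.20 for NMN and 0.40 for the whole difference, and 0.26, 0.08 and -0.12 between replicates. These are descriptions across genes of the same 6 libraries, and genes are not replicates.

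**Figure D5:**
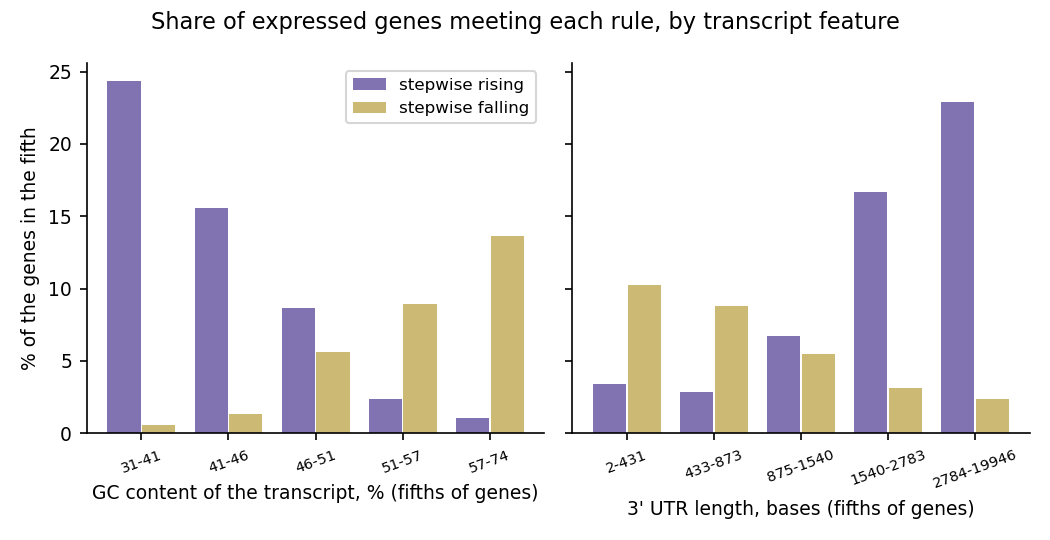
Percent of expressed genes that meet the stepwise rising rule (purple) or its reverse (yellow), in 5 bins of equal size by GC content of the transcript (left) and by length of the 3′ UTR (right). Rising genes fall from 24.4% of the most AT-rich bin to 1.03% of the most GC-rich bin, and go from 3.42% of the shortest to 22.9% of the longest 3′ UTRs.

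Composition moved with the result, and its part in it was not tested, but the values after removing it can be given. After a smooth trend of each sample on transcript GC was subtracted, 154 genes met the rule, of which 102 were members, and the members' median difference between NMN-supplemented and control oocytes was 0.41. After trends on GC and on transcript length, 126 genes met it, of which 64 were members, with a median of 0.33. The members that met the rule in both settings include NCOA3 (1.38 and 1.26), LIN7C (0.95 and 0.87), KIAA1551 (0.93 and 0.79), CCP110 (0.87 and 0.74), MSX1 (0.74 and 0.89), WEE2 (0.71 and 0.74), ACVR2B (0.87 and 0.77) and PALB2 (0.77 and 0.69), with their differences after removal in parentheses. BRCA2, the partner of PALB2, met it in neither setting, nor did MASTL, SRSF3, CTNNB1, PPM1D, YAP1 or LATS1. ITCH, for which no RefSeq transcript was found, could not be assessed in either setting. CDC37L1 and TBC1D32, a gene of ciliary signalling on the autophagy list, ended at -0.00198 and -0.065 with both trends removed. Both trends were removed after the data had been seen.

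Sequence elements of the 3′ UTR differed in the same direction as its composition and length. The CPE was denser in members, at a median of 2.34 per kilobase against 1.55 in expressed genes and 0 in genes of reversed order. It lay in the last 100 bases in 35.8, 26.2 and 8.33% of these groups, and both measures cover only 3′ UTRs of at least 100 bases. A Pumilio element (TGTANATA) was found in 53.5, 30.7 and 12.9% of 3′ UTRs, and an AU-rich pentamer (ATTTA) in 95.5, 76.1 and 48.0%. All of these motifs are rich in A and T. Within the most AT-rich bin of transcripts, 100% of members and 93.6% of the other genes held a CPE, and in the next bin 96.2 and 86.6%, though members' 3′ UTRs were longer there as well (medians of 2962 against 1999 bases, and 2266 against 1294). In the 5 bins of 3′ UTR length, from short to long, 65.2, 89.5, 97.8, 100 and 99.4% of members held a CPE, against 38.4, 61.3, 78.5, 91.6 and 98.1% of the other genes. The bin of the longest 3′ UTRs, with 154 members, thus showed little difference. NCOA3, DNTTIP2, WEE2 and MSH6 held no CPE in their annotated 3′ UTRs, and WEE2's is only 108 bases long. The polyadenylation signal was about as dense in members (2.26 per kilobase) as in expressed genes (2.13).

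Promoters gave no such contrast. In the 300 bases around the start, searched on both strands, a heat shock element of a pair of inverted units (GAANNTTC or TTCNNGAA) was present in 11.9% of members, 11.3% of expressed genes and 10.2% of genes of reversed order. The CCAAT box was found in 36.4, 38.2 and 42.4%, the GC box (GGGCGG) in 62.4, 64.1 and 65.4%, TATAAA in 7.34, 7.34 and 7.32% and the full cAMP response element (TGACGTCA) in 2.54, 3.53 and 3.90%.

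The genes were spread over all chromosomes. Chromosome 1 held 54 members, and the shares of a chromosome's expressed genes were highest on 8 (19.1%), 15 (18.4%) and 1 (18.0%) and lowest on 17 (4.72%). Only 4 pairs of members lay within 10000 bases of each other, namely TMEFF1 and CAVIN4, WDR47 and CLCC1, INPP5F and MCMBP, whose genes overlap on opposite strands, and SF3B1 and COQ10B. Loci shared with another gene in the authors' table held 109 members (30.6%), against 1120 expressed genes (32.8%), and without these loci 247 members remained. Besides the genes marked above, those 109 include PANK3, SRSF3, YAP1, ITCH, TARDBP, DCP2, CNOT6, PPM1A and MSH6, among others.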

How the data were processed

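RNA of pooled porcine oocytes was sequenced in 6 samples, 2 each in 3 groups given by the labels. According to the study's methods, the authors trimmed reads with cutadapt and aligned them to susScr11 with tophat2, with mRNA isolated from total RNA per the labels and reverse transcribed with random primers. The submitters' processing notes name Cufflinks 2.2.1, Cuffnorm and Cuffdiff. The authors deposited FPKM per gene and sample, and their log2 fold changes, p-values and q-values between groups, which were not used. The counting of reads shared by overlapping genes or copies is not given in the sources used here.

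A pseudocount of 1 FPKM was added before taking log2. Genes whose mean over 6 samples was 1 FPKM or more entered a limma 3.58.1 model of 3 groups (R 4.3.3, trend of variance on expression). It gave each log2 difference and its SE. The model was tested on simulated data with the same SD for every gene, so that test did not cover differences in spread between genes. No p-value is given for members, because all 3 contrasts were used to choose them. The members, lists and motifs were chosen with earlier results of these data known. Named were the 25 members with the largest difference, the 3 with the highest level, up to 4 per list, the 3 genes on each side of the threshold and the 3 with the largest and smallest share with heat, from which the text gives a selection. Some of these genes and a 3′ UTR stretch are not reported here. Genes outside this rule are marked, except the genes named by sequence composition, in neighbouring pairs or by the symbols on a list, which were also chosen after their values were seen.

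Transcripts, 3′ UTRs and promoters were read from RefSeq release 106 of Sscrofa11.1, the same build as susScr11, using the longest mRNA per gene. Tables were joined in pandas 2.3.3 under Python 3.11.15, rank correlations came from scipy 1.17.1 and plots from matplotlib 3.10.9. Alternatives were another pseudocount, other filters and minimum differences, scalings, the replicate number as a block, leaving out each sample and leaving out shared loci. Removing lowess trends of each sample on GC and log2 transcript length, and scaling without LOC100513953, were added after the data had been seen.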

Additional observations from a re-analysis of the deposited data

How the results depend on the processing

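The members were selected by the rule, so their own values say little about its stability; how many genes meet it under other settings says more. Leaving out each sample in turn, which loosens the order that must hold, gave 340 to 519 rising and 233 to 287 falling genes. Without either heat sample all members meet the rule by construction, and without a control or NMN sample 287 to 339 of the 356 did. Same median scaling gave 353, quantile normalization 303 and shared loci left out 247. The replicate numbers do not pair the samples (correlations of deviations of -0.03, 0.01 and -0.01); taking the order within each replicate number as a block gave 395 genes, and a replicate block in the model gave a median SE of 0.14. With a pseudocount of 0.1 FPKM the members' median NMN minus control difference was 0.84. A minimum mean of 5 FPKM gave 180 rising and 77 falling genes, a minimum log2 difference of 1 gave 18 and 99, and no minimum gave 621 rising genes. Scaling to the same non-mitochondrial sum, to which LOC100513953 adds in H1 only, gave 14 rising and 87 falling genes, median steps of 0.12 for heat and 0.60 for NMN, and a median share with heat of 16.3%. With the GC trend removed there were 154 rising genes, and the members' medians were 0.22 for heat and 0.41 for NMN minus control. With GC and length trends removed there were 126, with medians of 0.19, 0.14 and 0.33 for heat, the NMN step and the whole, and CDC37L1 (-0.00198) and TBC1D32 (-0.065) changed sign. For single genes named, 718 values over these settings stayed within the spread of their replicates and 253 moved beyond it. The cause of these shifts was not tested, except that leaving LOC100513953 out of the sum gave 308 rising genes. With 2 samples per group and no counts, depth limits the steps of genes near 1 FPKM most.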
